A study of Homo sapiens with 82 samples.

Results

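The SLC38 genes encode transporters of neutral amino acids, and 9 of them were followed here in HT29 cells: SLC38A1, SLC38A2, SLC38A4, SLC38A5, SLC38A6, SLC38A7, SLC38A9, SLC38A10 and SLC38A11. They are 9 of the 51838 genes in the count tables and were found by their symbols, each of which had 1 row. SLC38A4 was chosen by its measured fold change with rosiglitazone at both times, so its values with that drug are given as a description without a test, and its 8 relatives were compared with it across all 8 groups. HT29 is an established line of colorectal adenocarcinoma cells, so every library comes from the same line. Cells were kept in medium without phenol red and with charcoal-stripped serum before treatment, and were then treated for 24 or 48 h with DMSO, the vehicle, or with GW3965, T0901317 or rosiglitazone, each drug at 10 μM. GW3965 and T0901317 are agonists of the liver X receptors (LXRs), and rosiglitazone is an agonist of the peroxisome proliferator-activated receptor gamma (PPARG). Each of the 8 groups held 4 replicates, and the DMSO libraries of a time point are shared by all comparisons with DMSO at that time.

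SLC38A1, SLC38A2 and SLC38A4 belong to transport system A, in which sodium entering the cell carries small neutral amino acids such as alanine with it, and SLC38A5 belongs to system N, which prefers glutamine and histidine and exchanges protons. SLC38A7 and SLC38A9 sit in the lysosome, where SLC38A7 exports glutamine and asparagine and SLC38A9 senses arginine for the kinase complex mTORC1. SLC38A2 is a known target of ATF4, the transcription factor that cells translate when amino acids run short, and SLC38A4 is best known from the liver. The functions of SLC38A6, SLC38A10 and SLC38A11 are less well described.

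The promoters of 4 members are shown, those of SLC38A4, of SLC38A11, which moved in the opposite direction with rosiglitazone, and of SLC38A1 and SLC38A2, which lie next to SLC38A4 on chromosome 12. The sequences are those of RefSeq on GRCh38.p14, written 5′ to 3′ on the strand of the gene and ending at the annotated start. For SLC38A1, the window of the 2 annotated that held matches is shown, with 4 bases past the start. Capitals mark matches to the motifs named in the next paragraph.
SLC38A1 chr12:46266513-46266766, minus strand: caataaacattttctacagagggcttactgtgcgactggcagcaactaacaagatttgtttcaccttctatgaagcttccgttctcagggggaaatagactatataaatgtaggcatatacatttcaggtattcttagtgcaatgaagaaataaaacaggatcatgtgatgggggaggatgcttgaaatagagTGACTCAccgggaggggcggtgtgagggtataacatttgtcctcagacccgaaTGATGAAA
SLC38A2 chr12:46372774-46373023, minus strand: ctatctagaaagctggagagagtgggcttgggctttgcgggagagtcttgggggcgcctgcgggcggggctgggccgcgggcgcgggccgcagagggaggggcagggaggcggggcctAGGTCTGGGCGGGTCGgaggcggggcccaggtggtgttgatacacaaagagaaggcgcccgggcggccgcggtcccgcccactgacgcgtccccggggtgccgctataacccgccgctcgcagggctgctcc
SLC38A4 chr12:46825998-46826247, minus strand: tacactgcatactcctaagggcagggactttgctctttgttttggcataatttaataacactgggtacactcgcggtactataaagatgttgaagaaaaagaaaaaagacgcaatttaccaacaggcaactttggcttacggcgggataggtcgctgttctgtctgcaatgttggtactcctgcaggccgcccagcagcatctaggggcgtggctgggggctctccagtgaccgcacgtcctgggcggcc
SLC38A11 chr2:164955526-164955775, minus strand: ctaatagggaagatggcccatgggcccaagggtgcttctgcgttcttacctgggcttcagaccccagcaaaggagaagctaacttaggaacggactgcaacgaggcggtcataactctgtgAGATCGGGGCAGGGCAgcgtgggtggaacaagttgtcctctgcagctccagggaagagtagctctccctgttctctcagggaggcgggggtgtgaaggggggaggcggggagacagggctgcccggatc

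Matches to 4 patterns were searched on both strands in windows that run from 250 bases before to 50 after each start. All 9 members had a window, and there were 13 windows in total. The DR1 pattern, AGGTCA repeated in the same direction after 1 base, to which PPARG binds as a dimer with RXR, was matched with up to 2 mismatches by 2.97% of all 35116 windows and by 0 of the 13. The DR4 pattern of LXR dimers, AGGTCA repeated after 4 bases, was matched with up to 3 mismatches by 18.6% of all windows and by 2 of the 13, which are those of SLC38A2 and SLC38A11, each with 3 mismatches. The AP1 pattern TGANTCA, which reads the same on both strands, was matched by 7.71% of all windows, by the shown window of SLC38A1 between 57 and 51 bases before the start, and by 1 of the 3 windows of SLC38A9. The amino acid response pattern TGATGNAA was matched by 3.62% of all windows and by the shown window of SLC38A1, where it begins 4 bases before the start. No other member window held it, and sequence outside the windows, such as introns further on, was not searched. The SLC38A4 window held no match to any of these letters, and none of the matches shown overlapped another.

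The 32 libraries held between 21044798 and 51332656 counts at 24 h and between 32312041 and 50938082 counts at 48 h. Levels are given as CPM, counts scaled to a common library total with TMM factors. The quasi-likelihood test of edgeR compared each drug with DMSO of its time, and a gene passed at a Benjamini-Hochberg adjusted p under 0.01 over all genes tested. The sources state that treatments were done in quadruplicate without saying whether these were separate cultures, so p-values measure the spread between these libraries. All 11 markers of intestinal epithelium reached a mean of 1 CPM in every group but rosiglitazone at 48 h, where 10 did. At 48 h 6 of the 11 rose with GW3965, 5 rose and 2 fell with T0901317, and 3 rose and 4 fell with rosiglitazone. Of all genes, 33.6%, 30% and 25.5% passed in these comparisons. The 11 summed to between 17100 and 18100 CPM with DMSO at 48 h and between 16200 and 16900 CPM with GW3965. With T0901317 they summed to between 14300 and 15900 CPM, and with rosiglitazone to between 18300 and 21700 CPM. The part of these markers in the SLC38 results was not tested. Known targets responded: ABCG1 had a log2 fold change of 4.67 with GW3965 (SE 0.08) and 4.34 with T0901317 (SE 0.08) at 24 h, and PDK4 had 2.58 with rosiglitazone (SE 0.10). The 4 treatment check genes were ABCA1, ABCG1, ANGPTL4 and PDK4. At 24 h 3 rose with GW3965, 2 with T0901317 and 3 with rosiglitazone, where 2.73%, 1.45% and 12.3% of all genes passed. PDK4 was then higher with GW3965 than with T0901317 by 1.21 (SE 0.10, adjusted p = 7.54e-07, edgeR). ABCA1 had -0.95 with rosiglitazone (SE 0.11, adjusted p = 3.9e-06, edgeR). At 48 h 4 rose with GW3965, 3 with T0901317 and 3 with rosiglitazone, where 33.6%, 30% and 25.5% passed.

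SLC38A4 was low in vehicle and highest with rosiglitazone. With DMSO at 24 h its 4 libraries held 1.08, 1.05, 1.045 and 1.375 CPM, from 33 to 49 counts. With rosiglitazone at 24 h they held 66.2, 74.75, 70.85 and 65.1 CPM. The lowest rosiglitazone library lay far above the highest DMSO library. With DMSO at 48 h the values were 1.03, 1.33, 0.879 and 1.21 CPM. With rosiglitazone at 48 h they were 85.96, 86.1, 71.1 and 83.5 CPM. The fitted log2 fold changes were 5.92 at 24 h and 6.18 at 48 h, or 60.5-fold and 72.7-fold, and these are the values for which the gene was chosen. In bulk RNA, a change in the number of cells with a transcript and a change in RNA per cell cannot be told apart.

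GW3965 also raised SLC38A4, to levels between those of vehicle and rosiglitazone. Its 24 h libraries held 4.24, 4.925, 4.46 and 4.56 CPM, against DMSO libraries that reached 1.375 CPM. Its 48 h libraries held 8.435, 8.92, 9.39 and 9.55 CPM. All GW3965 libraries lay above all DMSO libraries of their time and below all rosiglitazone libraries. Against DMSO this was a log2 fold change of 1.99 at 24 h (SE 0.10, adjusted p = 8.91e-11, edgeR) and 3.03 at 48 h (SE 0.12, adjusted p = 5.23e-13, edgeR). The response at 48 h exceeded that at 24 h by 1.04 on the log2 scale (SE 0.17, adjusted p = 1.61e-05, edgeR interaction test). These tests use the same DMSO libraries as the contrast that chose the gene.

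T0901317 gave a much smaller change in SLC38A4 than GW3965. Its 24 h libraries held 1.22, 1.08, 1.065 and 1.08 CPM, within the range of the DMSO libraries. Its 48 h libraries held 2.05, 1.47, 1.77 and 1.56 CPM, all above the DMSO libraries of that time. The log2 fold change was -0.02 at 24 h (95% interval from -0.3 to 0.25, adjusted p = 0.983, edgeR) and 0.64 at 48 h (SE 0.15, adjusted p = 0.00152, edgeR). This 48 h call was lost without DMSO replicate 3 (0.52, adjusted p = 0.0111, edgeR) and in a fit of the 2 groups alone (0.64, adjusted p = 0.012, edgeR). The 48 h response exceeded the 24 h response by 0.66 (SE 0.20), which did not pass (adjusted p = 0.0124, edgeR), but did without DMSO replicate 2 (0.76, adjusted p = 0.00638, edgeR), T0901317 replicate 2 (0.72, adjusted p = 0.00811, edgeR) or rosiglitazone replicate 3 (0.66, adjusted p = 0.00959, edgeR) of 48 h. The direct comparison put GW3965 above T0901317 by 2.02 at 24 h (SE 0.11, adjusted p = 1.81e-09, edgeR) and by 2.39 at 48 h (SE 0.11, adjusted p = 9.83e-11, edgeR), with no overlap of the groups at either time.

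**Figure D1:**
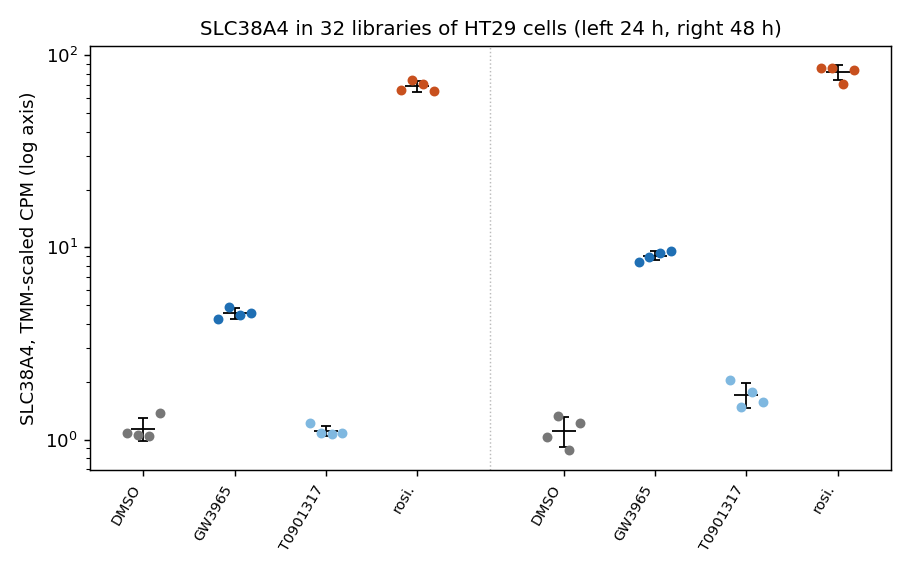
SLC38A4 in each of the 32 libraries, as TMM-scaled CPM on a log axis, with 24 h on the left and 48 h on the right. Points are libraries, and the bars are the mean and SD of 4 replicates; rosiglitazone libraries lie between 65.1 and 86.1 CPM, GW3965 libraries between 4.24 and 9.55, and the other groups between 0.879 and 2.05.

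By group mean, SLC38A4 was ordered from rosiglitazone at 48 h (81.7 CPM, SD 7.15, n = 4) and at 24 h (69.2 CPM, SD 4.45, n = 4), through GW3965 at 48 h (9.07 CPM, SD 0.504) and 24 h (4.55 CPM, SD 0.285), to T0901317 at 48 h (1.71 CPM, SD 0.254). DMSO at 24 h (1.14 CPM), DMSO at 48 h (1.11 CPM) and T0901317 at 24 h (1.11 CPM) came last and overlapped each other. The 2 rosiglitazone groups overlapped as well, between 71.1 and 74.75 CPM. In vehicle, SLC38A4 differed by -0.04 between 48 and 24 h on the log2 scale (95% interval from -0.34 to 0.26, adjusted p = 0.847, edgeR).

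Markers of cell types other than intestinal epithelium were looked at beside these levels. The 5 hepatocyte markers summed to between 0.109 and 0.793 CPM in all libraries, and albumin (ALB) had at most 2 counts in any library. The 4 adipocyte markers summed to between 0.981 and 1.54 CPM with DMSO at 24 h and between 2.48 and 3.26 CPM with rosiglitazone, and to between 0.852 and 1.59 CPM and between 3.24 and 4.68 CPM at 48 h. With GW3965 they summed to between 1.64 and 2.08 CPM at 24 h and between 2.18 and 3.85 CPM at 48 h, and with T0901317 to between 1.27 and 1.78 CPM and between 2.36 and 2.66 CPM. Only 1 of the 4, the lipid droplet gene CIDEC, reached a mean of 1 CPM, and it rose with rosiglitazone at both times and with both LXR agonists at 48 h. Their part in the SLC38 results was not tested. The fibroblast markers summed to at most 9.89 CPM and the endothelial markers to at most 0.586 CPM. At 48 h the fibroblast sums lay between 5.31 and 7.57 CPM with DMSO and between 8.85 and 9.89 CPM with GW3965. They lay between 6.43 and 9.46 CPM with T0901317 and between 7.39 and 8.39 CPM with rosiglitazone. The 5 leukocyte markers summed to between 454 and 532 CPM with DMSO at 24 h and between 458 and 517 CPM with GW3965. With T0901317 they summed to between 483 and 572 CPM and with rosiglitazone to between 549 and 593 CPM, and lysozyme (LYZ) made up most of this. At 48 h they summed to between 458 and 483 CPM with DMSO, between 539 and 595 CPM with GW3965, between 682 and 752 CPM with T0901317 and between 455 and 497 CPM with rosiglitazone. The 2 that were tested, LYZ and CD14, both rose with each LXR agonist at 48 h, by 0.27 and 1.94 with GW3965 and by 0.61 and 2.54 with T0901317, while PTPRC, found on all leukocytes, had at most 5 counts in any library. The part of these markers in the SLC38 changes was not tested at either time.

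SLC38A11 moved in the opposite direction with rosiglitazone and fell the furthest of the relatives. With DMSO at 24 h its libraries held 7.80, 9.23, 9.50 and 7.10 CPM. With rosiglitazone they held 1.58, 2.86, 1.55 and 2.41 CPM. At 48 h the DMSO libraries held 7.79, 9.12, 7.81 and 6.66 CPM and the rosiglitazone libraries 1.02, 1.88, 1.01 and 0.785 CPM. Every rosiglitazone library lay below every DMSO library of its time, and the lowest held 24 counts. This gave a log2 fold change of -2.01 at 24 h (SE 0.17, adjusted p = 6.89e-08, edgeR) and -2.77 at 48 h (SE 0.18, adjusted p = 8.43e-10, edgeR), which is 4.02-fold and 6.82-fold lower. The difference between the times was -0.75 (SE 0.27) and did not pass (adjusted p = 0.0899, edgeR).

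With the LXR agonists SLC38A11 was lower at 24 h, and only the GW3965 value passed. GW3965 libraries held 4.22, 6.35, 4.76 and 4.50 CPM at 24 h, all below the DMSO libraries. T0901317 libraries held 5.20, 5.88, 5.29 and 5.72 CPM, also all below them. The log2 fold change was -0.77 with GW3965 (SE 0.16, adjusted p = 0.00447, edgeR) and -0.61 with T0901317, which did not pass (SE 0.16, adjusted p = 0.0471, edgeR). The GW3965 call was lost without DMSO replicate 2 (adjusted p = 0.0208) or 3 (0.0232) and without GW3965 replicate 3 (0.0165) or 4 (0.0209), with log2 fold changes of -0.72, -0.70, -0.75 and -0.73. The T0901317 value passed with DESeq2 (adjusted p = 0.00802) and in a fit of the 2 groups alone (adjusted p = 0.00494, edgeR). At 48 h neither agonist passed, with -0.22 for GW3965 (95% interval from -0.54 to 0.09) and 0.17 for T0901317 (95% interval from -0.14 to 0.48). For T0901317 the change between the times was 0.78 (SE 0.23, adjusted p = 0.009, edgeR), but this call was lost in 18 of the 32 fits that left out 1 library, with adjusted p up to 0.0261 and values between 0.71 and 0.81. Those 18 libraries were DMSO replicates 1, 2 and 3, GW3965 replicates 3 and 4 and all T0901317 replicates of 24 h, and DMSO replicates 1, 3 and 4, all GW3965 replicates and T0901317 replicates 2 and 4 of 48 h.

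SLC38A2, the system A transporter that cells induce when amino acids are scarce, changed most with time in vehicle. With DMSO at 24 h its libraries held 116, 107.5, 130 and 110.5 CPM, and with DMSO at 48 h they held 505, 498, 513.5 and 511 CPM. The groups were far apart, and the log2 difference was 2.13 (SE 0.08, adjusted p = 1.48e-20, edgeR), or 4.37-fold. Time in culture and anything else that differed between the 24 h and 48 h sets of libraries cannot be told apart.

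The LXR agonists moved SLC38A2 up at 24 h and down at 48 h relative to DMSO of the same time. GW3965 libraries held 173, 169.6, 180 and 179 CPM at 24 h, and T0901317 libraries 162, 155, 143 and 184 CPM. All 8 lay above the DMSO libraries of 24 h. At 48 h GW3965 libraries held 239.6, 206, 234 and 239 CPM, and T0901317 libraries 216, 257, 238 and 291 CPM. All 8 lay below the DMSO libraries of 48 h and above every library of 24 h. With GW3965 the log2 fold change was 0.59 at 24 h (SE 0.07, adjusted p = 1.12e-05, edgeR) and -1.15 at 48 h (SE 0.08, adjusted p = 9.92e-10, edgeR). With T0901317 it was 0.48 at 24 h (SE 0.07, adjusted p = 0.000307, edgeR) and -1.01 at 48 h (SE 0.08, adjusted p = 5.24e-09, edgeR). The change of response between the times was -1.74 for GW3965 (SE 0.11, adjusted p = 6.25e-14, edgeR) and -1.49 for T0901317 (SE 0.11, adjusted p = 2.04e-12, edgeR).

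With rosiglitazone SLC38A2 passed at neither time. Its libraries held 99.96, 107, 104 and 105 CPM at 24 h and 414, 450.3, 478 and 476 CPM at 48 h, below all DMSO libraries of the same time. Its log2 fold change was -0.16 at 24 h (95% interval from -0.31 to -0.02, adjusted p = 0.109, edgeR) and -0.18 at 48 h (95% interval from -0.34 to -0.01, adjusted p = 0.0815, edgeR). The 48 h value passed when libraries were scaled by their totals alone (-0.36, adjusted p = 0.000809, edgeR), a scaling that moved the median of all genes by -0.18 in this comparison.

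SLC38A1, the other widely expressed system A transporter, moved the same way as SLC38A2 over time and with the LXR agonists at 48 h, with smaller changes. Its DMSO libraries held 101, 97.45, 109.6 and 92.5 CPM at 24 h and 163, 168, 167 and 161 CPM at 48 h, a log2 difference of 0.72 (SE 0.10, adjusted p = 2.01e-07, edgeR). At 48 h GW3965 libraries held 105, 97.15, 103 and 103 CPM and T0901317 libraries 86.8, 98.3, 93.8 and 125 CPM. All 8 lay below the DMSO libraries of 48 h. The log2 fold change at 48 h was -0.70 with GW3965 (SE 0.11, adjusted p = 5.3e-05, edgeR) and -0.71 with T0901317 (SE 0.11, adjusted p = 5.03e-05, edgeR). The change between the times was -0.98 for GW3965 (SE 0.14, adjusted p = 1.34e-06, edgeR) and -0.93 for T0901317 (SE 0.14, adjusted p = 3.67e-06, edgeR).

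At 24 h SLC38A1 missed the threshold with both agonists. The log2 fold change with GW3965 was 0.28 (SE 0.06, adjusted p = 0.0113, edgeR), and it passed with DESeq2 (adjusted p = 0.0011), with no filter on low counts (adjusted p = 0.00782, edgeR) and without DMSO replicate 3 (0.33, adjusted p = 0.00578, edgeR), GW3965 replicate 1 (0.32, adjusted p = 0.00369, edgeR) or T0901317 replicate 3 (0.28, adjusted p = 0.00441, edgeR). With T0901317 it was 0.22 (SE 0.07, adjusted p = 0.0898, edgeR). With rosiglitazone at 48 h SLC38A1 libraries held 160.9, 208.5, 262 and 223 CPM. Replicate 1 lay just below the lowest DMSO library (161.3 CPM), and the others lay above all DMSO libraries. Its log2 fold change was 0.36 and did not pass (SE 0.11, adjusted p = 0.0185, edgeR). It passed with DESeq2 (adjusted p = 0.0064), with no filter (adjusted p = 0.00826, edgeR), without rosiglitazone replicate 1 (0.47, adjusted p = 0.000545, edgeR) and without T0901317 replicate 4 (0.36, adjusted p = 0.007, edgeR).

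SLC38A5, the system N member, fell with time in vehicle and was higher with GW3965 and rosiglitazone. Its level was 89.9 CPM with DMSO at 24 h (SD 7.76, n = 4) and 50.2 CPM at 48 h (SD 4.08, n = 4), a log2 difference of -0.84 (SE 0.08, adjusted p = 6.03e-11, edgeR). With GW3965 at 48 h its libraries held 74.55, 83.8, 75.8 and 78.6 CPM, against 54.3, 52.9, 45.9 and 47.6 CPM with DMSO. These groups did not overlap, and the log2 fold change was 0.64 (SE 0.08, adjusted p = 3.56e-06, edgeR). GW3965 was above T0901317 by 0.50 at 48 h (SE 0.08, adjusted p = 0.000422, edgeR), and the T0901317 value of 0.13 against DMSO did not pass (95% interval from -0.04 to 0.3). At 24 h GW3965 gave 0.24 and did not pass (adjusted p = 0.042, edgeR). The GW3965 response at 48 h was above that at 24 h by 0.40 (SE 0.11, adjusted p = 0.00394, edgeR), and this call was lost without DMSO replicate 1, 2 or 4 or GW3965 replicate 2 of 24 h and without DMSO replicate 3 or 4 or GW3965 replicate 2 of 48 h (values from 0.34 to 0.38, adjusted p up to 0.0177, edgeR).

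Rosiglitazone changed SLC38A5 by 0.29 at 24 h (SE 0.07, adjusted p = 0.00306, edgeR) and by 0.31 at 48 h (SE 0.08, adjusted p = 0.00653, edgeR). The rosiglitazone libraries of 24 h lay above those of DMSO, between 106 and 113 CPM, while at 48 h they lay between 53.7 and 70.4 CPM and overlapped them. With scaling by library totals alone neither value passed (0.20, adjusted p = 0.0176, and 0.13, adjusted p = 0.241, edgeR). The 24 h call was also lost without rosiglitazone replicate 1 (0.28, adjusted p = 0.0109, edgeR) or 3 (0.28, adjusted p = 0.0103, edgeR). The 48 h call was lost without DMSO replicate 3 or 4 or rosiglitazone replicate 1, 2 or 4 (values from 0.25 to 0.31, adjusted p up to 0.0252, edgeR).

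The lysosomal member SLC38A7 rose with both LXR agonists at 48 h. Its libraries held 26.1, 27.2, 26.1 and 27.1 CPM with GW3965 and 27.5, 22.97, 22.5 and 24.2 CPM with T0901317, against 17.9, 21.01, 14.9 and 17.8 CPM with DMSO. All 8 treated libraries lay above the DMSO libraries. SLC38A7 had a log2 fold change of 0.57 with GW3965 (SE 0.12, adjusted p = 0.00047, edgeR) and 0.44 with T0901317 (SE 0.12, adjusted p = 0.00443, edgeR). The T0901317 call was lost without DMSO replicate 1, 3 or 4 or T0901317 replicate 1 or 4 (values from 0.36 to 0.44, adjusted p up to 0.0256, edgeR). At 24 h SLC38A7 gave -0.02 with GW3965 and 0.12 with T0901317, and neither passed. The GW3965 response at 48 h was above that at 24 h by 0.59 (SE 0.16, adjusted p = 0.00364, edgeR), a call lost without DMSO replicate 1 or 2 or GW3965 replicate 2 of 24 h or DMSO replicate 3 of 48 h (values from 0.50 to 0.55, adjusted p up to 0.016, edgeR).

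SLC38A9, the arginine sensor of mTORC1, passed in no comparison. Its group means lay between 5.79 CPM with rosiglitazone at 48 h (SD 1.75, n = 4) and 9.63 CPM with GW3965 at 48 h (SD 0.348, n = 4). The rosiglitazone value at 48 h was -0.43 (95% interval from -0.77 to -0.09, adjusted p = 0.042, edgeR), and it passed without rosiglitazone replicate 2 (-0.64, adjusted p = 0.002, edgeR) and with scaling by library totals alone (-0.61, adjusted p = 0.00502, edgeR).

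SLC38A10 rose with GW3965 at 48 h, from 129.8 CPM (SD 5.21, n = 4) to 166 CPM (SD 3.65, n = 4), a log2 fold change of 0.35 (SE 0.07, adjusted p = 0.000361, edgeR). Its T0901317 value at 48 h was 0.20 and did not pass (95% interval from 0.05 to 0.34, adjusted p = 0.0283, edgeR). The GW3965 response at 48 h was above that at 24 h by 0.41 (SE 0.11, adjusted p = 0.00305, edgeR). In vehicle SLC38A10 fell by 0.25 on the log2 scale between 24 and 48 h (SE 0.07, adjusted p = 0.00626, edgeR), and this call was lost without DMSO replicate 1, 2 or 4 of 24 h or DMSO replicate 1, 2 or 3 of 48 h (adjusted p up to 0.024, edgeR) and with no filter on low counts (-0.24, adjusted p = 0.0125, edgeR).

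SLC38A6 was low, with group means between 1.72 and 2.54 CPM, and passed in no comparison. Its log2 fold changes against DMSO lay between -0.20 and 0.32, with 95% intervals as wide as from -0.24 to 0.69. In RefSeq its span overlaps that of TRMT5, and the library kit does not mark strand, so reads from overlapping stretches cannot be assigned with certainty. SLC38A3 and SLC38A8, which are outside the 9 genes, held at most 8 and 3 counts in any library and were not tested.

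**Figure D2:**
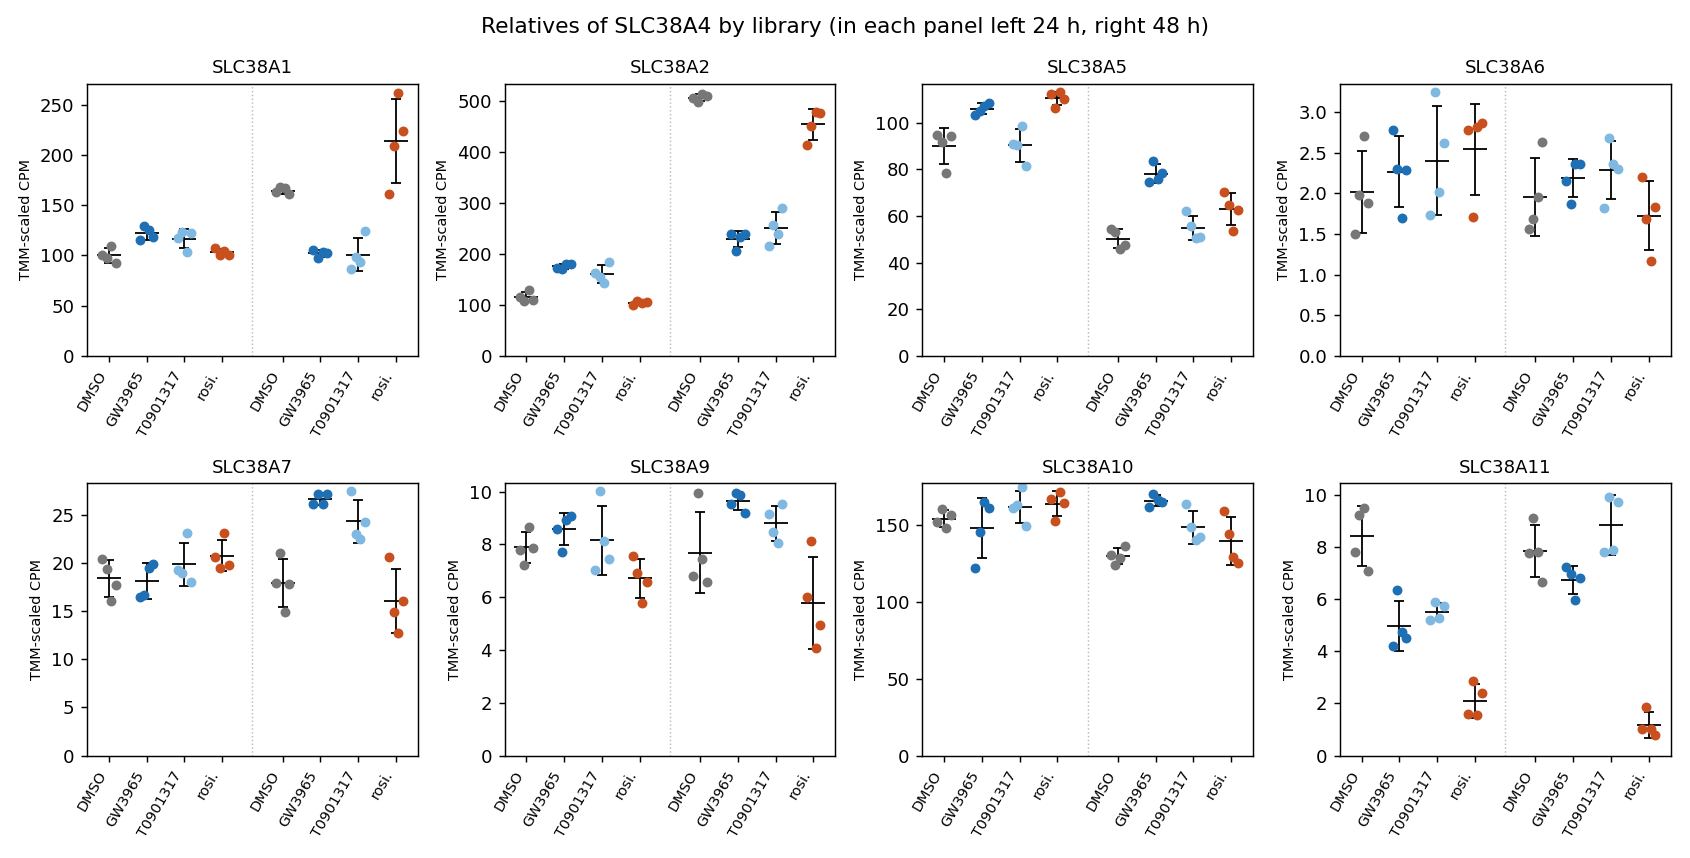
The 8 relatives of SLC38A4 in each of the 32 libraries, as TMM-scaled CPM from 0, with 24 h on the left and 48 h on the right of each panel. Points are libraries, and the bars are the mean and SD of 4 replicates; SLC38A2 rises from 116 to 507 CPM between the DMSO groups, and SLC38A11 is lowest in the rosiglitazone groups (2.10 and 1.17 CPM).

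Counted over the family, GW3965 at 24 h moved 3 of the 9 members (2 up, 1 down), where 2.73% of the 21781 genes tested passed. T0901317 moved 1 of 9, where 1.45% passed. Rosiglitazone moved 2 of the 8 relatives (SLC38A5 up, SLC38A11 down), where 12.3% passed, and SLC38A4 is left out of that count. At 48 h GW3965 moved 6 of 9 (4 up, 2 down), where 33.6% of 22470 genes passed, and T0901317 moved 4 of 9 (2 up, 2 down), where 30% passed. Rosiglitazone again moved 2 of the 8 relatives, where 25.5% passed. SLC38A4 is among the members that rose with GW3965 at both times and with T0901317 at 48 h. Those tests share DMSO libraries with the contrast that chose it, so these counts are not independent of that choice. With a limit of at least 2-fold added, 1 member passed with GW3965, 0 with T0901317 and 1 relative with rosiglitazone at 24 h. Of all genes 0.537%, 0.28% and 2.18% did, and the GW3965 member was SLC38A4. At 48 h the counts were 2, 1 and 1, where 5.77%, 5.4% and 5.86% did, and 1 for GW3965 against T0901317, where 0.463% did. SLC38A4 was 1 of the 2 with GW3965 and the member in the direct comparison. A limit of at least 1.5-fold left 0 members with T0901317 at 24 h (0.721% of all genes), 1 relative with rosiglitazone at 24 h (4.94%) and at 48 h (12.2%), and 1 member for GW3965 against T0901317 at 48 h (2.07%). It also removed SLC38A7 (1.48-fold) and SLC38A10 (1.27-fold) with GW3965 at 48 h and SLC38A7 (1.36-fold) with T0901317 at 48 h.

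Members had a median log2 fold change of 0.17 with GW3965 at 24 h and 0.32 at 48 h, beside -0.01 and 0 over all genes. For T0901317 it was 0.07 and 0.20, beside 0 and 0.01. For rosiglitazone, without SLC38A4, it was 0.06 and -0.18, beside -0.02 and -0.01.

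In vehicle, 4 of 9 members passed between 48 and 24 h (SLC38A1 and SLC38A2 up, SLC38A5 and SLC38A10 down), where 38.6% of 23140 genes passed, with a member median of -0.04 beside 0 over all genes. The responses differed between the times for 6 of 9 members with GW3965 (4 up, 2 down), where 21.6% of genes passed. SLC38A4 is 1 of the 4 that went up. With T0901317 they differed for 3 of 9 (SLC38A11 up, SLC38A1 and SLC38A2 down), where 17.4% passed. For rosiglitazone 0 of 8 relatives passed in edgeR and 0 in DESeq2, 3 had an unadjusted p under 0.05, and 2.45% of all genes passed. With at least 2-fold the counts were 1 in vehicle (8.53% of all genes), 2 for the change of response with GW3965 (4.7%) and 1 with T0901317 (4.09%).

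**Figure D3:**
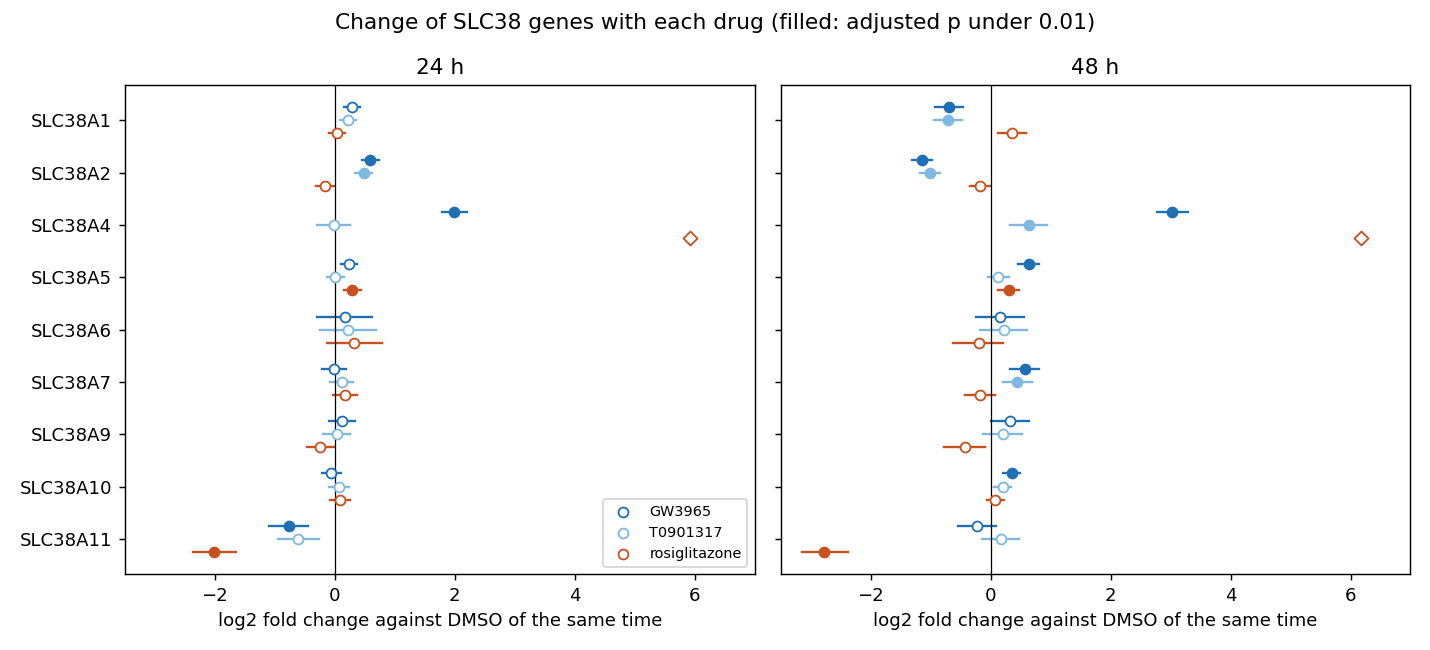
Log2 fold change of the 9 genes against DMSO of the same time (x axis) for each drug, at 24 h on the left and 48 h on the right. Lines are 95% intervals, filled points passed at an adjusted p under 0.01, and the open diamonds are SLC38A4 with rosiglitazone (5.92 and 6.18), which was not tested; SLC38A1 and SLC38A2 lie right of 0 with the LXR agonists at 24 h and left of it at 48 h.

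The 2 LXR agonists were given at the same dose and times, which allowed 18 direct comparisons of members, adjusted over all genes tested. At 24 h 1 of 9 members differed (SLC38A4), where 0.79% of genes passed, and at 48 h 2 of 9 differed (SLC38A4 and SLC38A5), where 8.36% passed. In all 3 cases GW3965 was higher. For SLC38A2 the difference was 0.12 at 24 h (95% interval from -0.03 to 0.26) and -0.13 at 48 h (from -0.29 to 0.03). For SLC38A1 it was 0.06 (from -0.07 to 0.2) and 0.01 (from -0.23 to 0.25). For SLC38A11 it was -0.16 at 24 h (from -0.5 to 0.18) and -0.39 at 48 h (from -0.7 to -0.09), where all GW3965 libraries lay below all T0901317 libraries but the adjusted p was 0.0727 (edgeR). The widest interval was that of SLC38A6 at 24 h, from -0.52 to 0.4.

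The ATF4 amino acid response list holds 8 genes: ATF4 itself, the asparagine synthetase ASNS, the glutathione-degrading enzyme CHAC1, the pseudokinase TRIB3, the stress factors DDIT3 and CEBPB, and the mTORC1 inhibitors DDIT4 and SESN2. Counts for this and the following lists stand beside the share of all genes that passed, namely 2.73% for GW3965 after 24 h and 33.6% after 48 h, 1.45% and 30% for T0901317, 12.3% and 25.5% for rosiglitazone, and 38.6% for the DMSO groups. Between the DMSO groups all 8 rose, with a median log2 difference of 3.66 beside 0 over all genes. CHAC1 rose by 5.13 (SE 0.12, adjusted p = 3.85e-25, edgeR) and ASNS by 3.61 (SE 0.13, adjusted p = 1.15e-20, edgeR). SLC38A2 rose by 2.13 in the same comparison and SLC38A1 by 0.72. With GW3965 at 24 h 7 of 8 rose (median 1.18) and with T0901317 7 of 8 (median 1.03), with CEBPB not passing in either. At 48 h all 8 fell with GW3965 (median -1.23) and 7 with T0901317 (median -1.48), with ATF4 not passing. SESN2 fell by 1.70 with GW3965 (SE 0.11, adjusted p = 7.28e-10, edgeR) and by 1.95 with T0901317 (SE 0.11, adjusted p = 1.44e-10, edgeR). SLC38A2 passed in the same directions, and SLC38A1 did so at 48 h, while SLC38A4 rose with GW3965 at both times. These libraries do not measure amino acid levels, and a link between the list and the SLC38 genes was not tested.

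With rosiglitazone 4 of the 8 response genes fell and 1 rose at 24 h (median -0.38). CHAC1 and DDIT4 had the largest falls, each -0.61 (adjusted p = 0.0022 and 0.000932, edgeR), and the gene that rose was CEBPB, by 0.52 (SE 0.09, adjusted p = 0.000427, edgeR). At 48 h 4 rose (median 0.36), led by CEBPB with 0.66 (SE 0.09, adjusted p = 9.14e-06, edgeR), and none of the others passed. The response between the times differed for 4 of 8, all upwards, and the largest change was that of DDIT4, 1.11 (SE 0.15, adjusted p = 1.29e-05, edgeR). SLC38A2, at -0.16 and -0.18, passed at neither time.

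**Figure D4:**
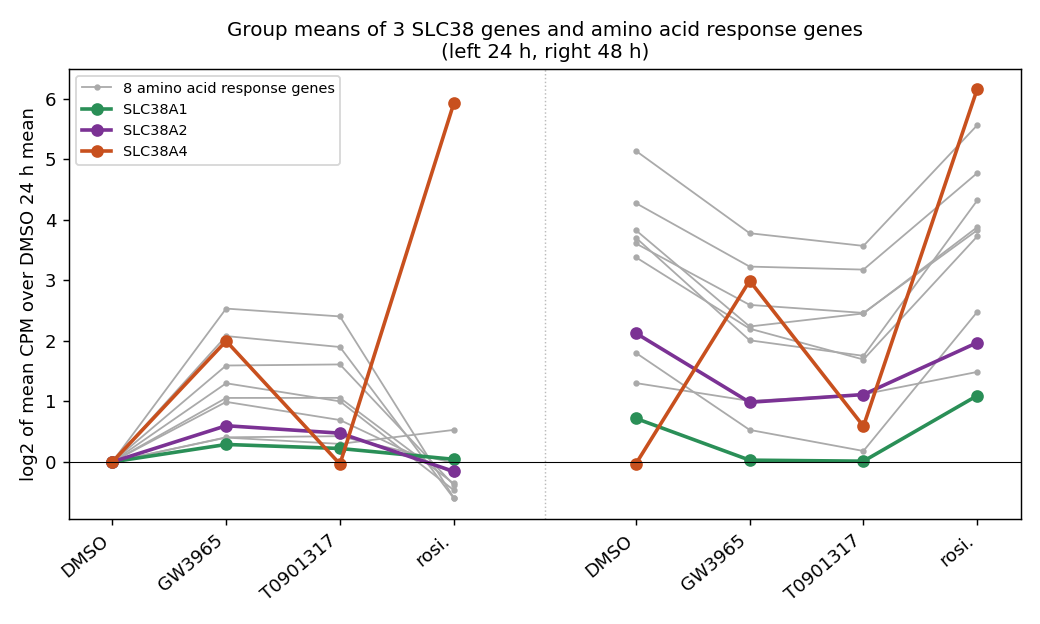
Group means of SLC38A1, SLC38A2, SLC38A4 and 8 amino acid response genes (grey) as the log2 ratio to the mean of DMSO at 24 h, with 24 h on the left and 48 h on the right. Each point is the mean of 4 libraries; the grey lines, SLC38A2 and SLC38A1 are high with DMSO and rosiglitazone at 48 h and lower with both LXR agonists, while SLC38A4 peaks with rosiglitazone at both times.

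Of 31 amino acid transporter genes outside the SLC38 family, 21 were tested at 24 h and 23 at 48 h. With GW3965 at 24 h 8 rose (median 0.13), led by the glycine transporter SLC6A9 with 2.50 (SE 0.24, adjusted p = 6.22e-07, edgeR). With T0901317 8 rose as well (median 0.23), again led by SLC6A9 with 1.98 (SE 0.24, adjusted p = 3.23e-05, edgeR). At 48 h 8 rose and 10 fell with GW3965 (median -0.12), and 6 rose and 9 fell with T0901317 (median -0.10). SLC6A9 then had the largest fall with both, -1.42 (SE 0.19, adjusted p = 4.23e-06, edgeR) and -2.21 (SE 0.19, adjusted p = 2.81e-08, edgeR). In vehicle it rose by 5.97 between 24 and 48 h (SE 0.26, adjusted p = 9.72e-19, edgeR), where 11 of 23 transporters rose and 5 fell (median 0.36). The largest rise with T0901317 at 48 h was SLC7A8, a light subunit of the large neutral amino acid exchanger, with 1.25 (SE 0.21, adjusted p = 7.44e-05, edgeR).

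With rosiglitazone 1 of the 21 transporters rose and 7 fell at 24 h (median -0.18), and 6 of 23 rose and 7 fell at 48 h (median -0.16), where 12.3% and 25.5% of all genes passed. The proline transporter SLC6A20 had the largest fall at both times, -1.79 (SE 0.13, adjusted p = 4.48e-09, edgeR) and -1.98 (SE 0.10, adjusted p = 1.4e-11, edgeR). The taurine transporter SLC6A6 was the gene that rose at 24 h, by 0.39 (SE 0.05, adjusted p = 1.62e-05, edgeR), and SLC6A9 had the largest rise at 48 h, 0.71 (SE 0.18, adjusted p = 0.0046, edgeR). SLC6A20 rose with GW3965 at 48 h, by 1.35 (SE 0.08, adjusted p = 3.27e-10, edgeR). Its means at 24 h were 10.01 CPM with DMSO, 27.41 CPM with GW3965 and 16.57 CPM with T0901317. It was higher with GW3965 than with T0901317 by 0.71 at 24 h (SE 0.11, adjusted p = 0.000588, edgeR) and 0.89 at 48 h (SE 0.08, adjusted p = 1.71e-06, edgeR).

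Of 24 genes of glutamine and serine metabolism, whose enzymes use or make the amino acids that SLC38 proteins carry, 23 were tested. With each LXR agonist 5 rose at 24 h, led by ASNS with 1.59 for GW3965 (SE 0.06, adjusted p = 1.23e-12, edgeR) and 1.61 for T0901317 (SE 0.06, adjusted p = 1.61e-12, edgeR). At 48 h 11 fell with each, while 4 rose with GW3965 and 3 with T0901317. The serine synthesis enzyme PSPH had the largest fall, -1.57 with GW3965 (SE 0.09, adjusted p = 1.48e-10, edgeR) and -1.37 with T0901317 (SE 0.09, adjusted p = 7.73e-10, edgeR), and the alanine transaminase GPT the largest rise, 1 (SE 0.09, adjusted p = 3.24e-08, edgeR) and 0.85 (SE 0.09, adjusted p = 2.56e-07, edgeR). With rosiglitazone 2 rose and 4 fell at 24 h, and 7 rose and 3 fell at 48 h. Glutamine synthetase, GLUL, had the largest fall at both times, -0.61 (SE 0.06, adjusted p = 2e-07, edgeR) and -0.92 (SE 0.06, adjusted p = 1.73e-10, edgeR).

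The genes with the pattern most like that of SLC38A4 were sought by Pearson correlation of log2 CPM over the 8 group means. Genes whose average CPM was under 1 on the log2 scale were left out. They were ANGPTL4 (r = 0.990), an inhibitor of lipoprotein lipase, the monocarboxylate transporter family gene SLC16A5 (r = 0.987), the phospholipase PLCE1 (r = 0.974), the transcriptional corepressor HR (r = 0.972) and the electron transfer flavoprotein subunit ETFA (r = 0.968). The points share libraries, and the rosiglitazone groups that chose SLC38A4 set much of each correlation, so these are descriptions. The level limit used the average over all 32 libraries, so high rosiglitazone values also helped genes such as ANGPTL4 pass it. ANGPTL4 was low in vehicle, with means of 0.594 CPM at 24 h and 0.247 CPM at 48 h. Its means were 1.44 and 3.54 CPM with GW3965, 0.658 and 0.602 CPM with T0901317, and 19.9 and 27.5 CPM with rosiglitazone. Against DMSO its log2 fold changes were 1.22 and 3.81 for GW3965, -0.02 and 1.31 for T0901317, and 5.02 and 6.75 for rosiglitazone. The 8 group means chose ANGPTL4 here, so these values are given without a test. HR had a mean of 5.36 CPM with DMSO, 14.3 CPM with GW3965, 8.53 CPM with T0901317 and 46.6 CPM with rosiglitazone at 24 h. ETFA was high in all groups, from 90.4 to 167 CPM.

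Among the relatives, the correlation with SLC38A4 over the 8 group means ran from -0.904 for SLC38A11 and -0.635 for SLC38A9 to 0.317 for SLC38A1, with SLC38A2 at 0.019. No relative was among the genes most like it.

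**Figure D5:**
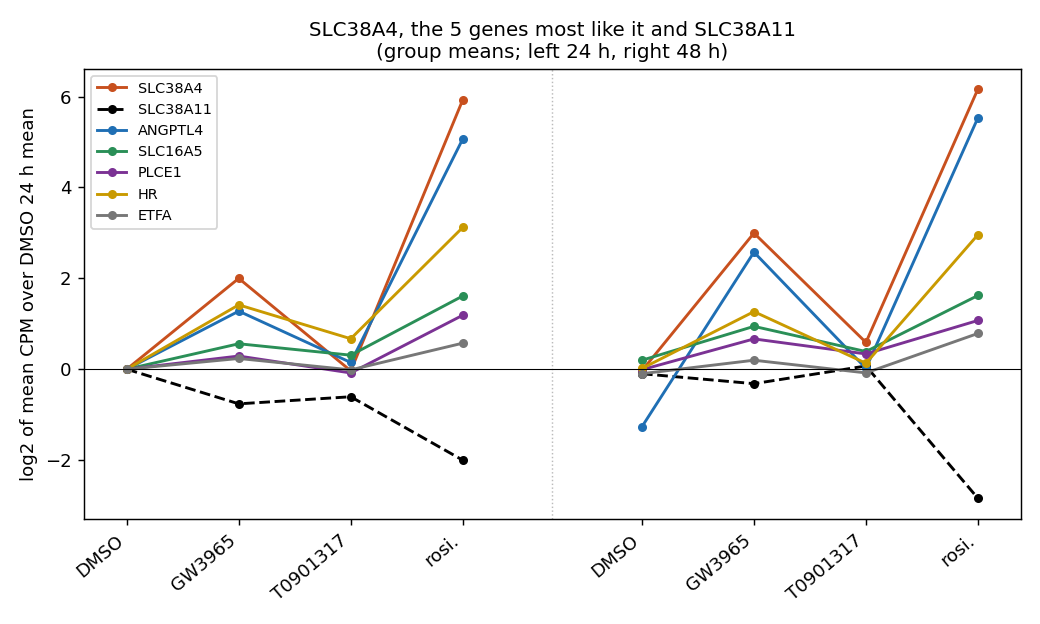
Group means of SLC38A4, the 5 genes with the most similar pattern and SLC38A11 (dashed) as the log2 ratio to the mean of DMSO at 24 h, with 24 h on the left and 48 h on the right. Each point is the mean of 4 libraries; the 5 genes are highest with rosiglitazone and intermediate with GW3965 at both times, and SLC38A11 is lowest with rosiglitazone.

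The neighbourhood of SLC38A4 on chromosome 12 was described by RefSeq, which lists 35 other genes that start within 1 Mb, of which 19 matched a row of the tables. The order of the nearest protein-coding genes along the chromosome is SLC38A1, SLC38A2, SLC38A4 and, on the far side, AMIGO2 and PCED1B. With rosiglitazone at 24 h 2 of 12 tested neighbours rose and 1 fell, and at 48 h 2 of 14 rose and 3 fell, where 12.3% and 25.5% of all genes passed. The adhesion gene AMIGO2 rose by 0.45 (SE 0.06, adjusted p = 1.55e-05, edgeR) and 0.71 (SE 0.09, adjusted p = 8.1e-06, edgeR). PCED1B rose by 0.38 (SE 0.10, adjusted p = 0.00963, edgeR) and 0.62 (SE 0.08, adjusted p = 8.14e-06, edgeR). RAPGEF3 fell at both times, with -0.47 (adjusted p = 0.00204, edgeR) and -0.7 (adjusted p = 1.03e-06, edgeR). RPAP3-DT (-0.74, adjusted p = 1.42e-05, edgeR) and SLC48A1 (-0.34, adjusted p = 0.00091, edgeR) fell at 48 h. The antisense gene SLC38A4-AS1 gave -0.83 and -0.95 and passed at neither time (adjusted p = 0.243 and 0.0445, edgeR). At 24 h 3 of 12 neighbours rose with GW3965 (SLC38A2, SLC38A2-AS1 and AMIGO2) and 1 with T0901317 (SLC38A2), and 0 fell, where 2.73% and 1.45% of all genes passed. With the LXR agonists at 48 h 0 of the 14 rose, and 6 fell with each, where 33.6% and 30% passed, among them SLC38A1, SLC38A2, SLC38A2-AS1 and AMIGO2. SLC38A2-AS1 fell by 1.23 with GW3965 (SE 0.17, adjusted p = 7.48e-06, edgeR) and by 1 with T0901317 (SE 0.17, adjusted p = 7.28e-05, edgeR). Its RefSeq span does not overlap that of SLC38A2.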

How the data were processed

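RNA of HT29 cells was sequenced from both ends in Nextera libraries, which do not mark strand. The authors deposited whole-number read counts per Ensembl gene without normalization for 24 h and 48 h. The submitters' processing notes name TopHat and Cufflinks and the build hg19, without versions. The ChIP-seq peaks of the series were not analysed here, since their coordinates are in hg19 and the reference positions in GRCh38.p14.

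The 9 genes and the gene lists were chosen with earlier results of these data known. Low genes were removed with filterByExpr, libraries were scaled with TMM, and edgeR 4.0.16 (R 4.3.3) was run on the 16 libraries of each time in 1 fit. Differences between times used all 32. Genes were named if they were members, treatment checks, the 5 genes most like SLC38A4 or neighbours that start within 1 Mb of it. The largest rise or fall past the threshold in each list was named too. List genes and similar genes were left out if their average CPM was under 1 on the log2 scale. Each standard error was derived from a fold change and its F value. DESeq2 1.42.0, other scaling and filters, fold limits of 1.5 and 2, a replicate block and leaving out each library were alternatives. On simulated counts with known changes, edgeR made at most 3 false calls in any of 12 comparisons. It recovered between 25.4% and 64.2% of 1.5-fold changes and between 53.7% and 82.1% of 2-fold changes. Motifs and plots used Python 3.11.15, numpy 2.4.6 and matplotlib 3.10.9. Intervals cover 95%.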

Additional observations from a re-analysis of the deposited data

Results flagged for a closer look

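In 4 of the 72 sets of 4 replicates (9 genes in 8 groups), 1 library stood apart from the other 3 by more than Dixon's criterion allows, which chance gives in about 1 of 20 sets. SLC38A4 was at 1.37 CPM in replicate 4 of DMSO at 24 h, with the others between 1.05 and 1.08 CPM. SLC38A4 was at 1.22 CPM in replicate 1 of T0901317 at 24 h, with the others between 1.06 and 1.08 CPM. SLC38A2 was at 206 CPM in replicate 2 of GW3965 at 48 h, with the others between 234 and 240 CPM. SLC38A6 was at 1.70 CPM in replicate 2 of rosiglitazone at 24 h, with the others between 2.78 and 2.87 CPM. Over all genes, pairs of replicates were compared by chi-square per degree of freedom, which grows as counts differ. Replicate 1 of GW3965 at 24 h gave 31.8, 73.2 and 66.4 against the others, which gave between 5.3 and 11.5 among themselves. Replicates 1 and 3 gave 36.4 with T0901317 and 53.1 with rosiglitazone at 48 h. Fits without 1 library were run for the members, not for the other gene lists.

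The response to a drug differed between 48 and 24 h, by the interaction test of edgeR, for 6 members with GW3965 and 3 with T0901317. With GW3965 the difference (48 h minus 24 h, log2) was -0.98 for SLC38A1, -1.74 for SLC38A2, 1.04 for SLC38A4, 0.40 for SLC38A5, 0.59 for SLC38A7 and 0.41 for SLC38A10. With T0901317 it was -0.93 for SLC38A1, -1.49 for SLC38A2 and 0.78 for SLC38A11. The vehicle levels of SLC38A1, SLC38A2, SLC38A5 and SLC38A10 differed between the times as well, by 0.72, 2.13, -0.84 and -0.25, and the part of this in the differences of response was not tested.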

How the results depend on the processing

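No call on a member changed sign under the alternatives run, while values near 0 that did not pass did in some fits, such as SLC38A4 with T0901317 at 24 h (from -0.08 to 0.08 leaving out 1 library) and SLC38A7 with GW3965 at 24 h (from -0.08 to 0.04). A fold limit changed the counts of members passing the most. With at least 2-fold the count was 1 of 3 for GW3965 at 24 h, 0 of 1 for T0901317 at 24 h and 1 of 2 for rosiglitazone at 24 h. At 48 h it was 2 of 6 for GW3965, 1 of 4 for T0901317, 1 of 2 for rosiglitazone and 1 of 2 for GW3965 against T0901317. It was 2 of 6 and 1 of 3 for the differences between times with GW3965 and T0901317, and 1 of 4 for DMSO. With at least 1.5-fold, 0 passed for T0901317 at 24 h, 1 for rosiglitazone at 24 h and at 48 h, and 1 for GW3965 against T0901317 at 48 h. This limit also removed SLC38A7 and SLC38A10 with GW3965 and SLC38A7 with T0901317 at 48 h. In vehicle it removed SLC38A10 (1.19-fold lower). From the difference between times with GW3965 it removed SLC38A5 (1.32-fold) and SLC38A10 (1.33-fold). For T0901317 at 24 h, where 1 passed, DESeq2 and the fit of the 2 groups alone gave 2, since SLC38A11 then passed. With DESeq2 and with no filter SLC38A1 also passed with GW3965 at 24 h and with rosiglitazone at 48 h. Scaling by library totals gave 1 for rosiglitazone at 24 h and 3 at 48 h, where SLC38A5 was lost and SLC38A2 and SLC38A9 were gained, and the fit of the 2 groups alone gave 1 for rosiglitazone at 48 h. The cause of these changes was not tested, apart from the fold limits.

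Leaving out 1 library in turn gave between 2 and 4 members for GW3965 at 24 h, 1 in every fit for T0901317 and between 1 and 2 for rosiglitazone. At 48 h it gave 6 in every fit for GW3965, between 2 and 4 for T0901317 and between 1 and 3 for rosiglitazone. The differences between times ranged from 4 to 6 for GW3965, from 2 to 4 for T0901317 and stayed at 0 for rosiglitazone, and DMSO ranged from 3 to 4. GW3965 against T0901317 gave 1 at 24 h and 2 at 48 h in every fit.

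The replicate numbers did not pair the libraries: 1 of 48 pairs of same-numbered libraries correlated above 0.1 (r from -0.085 to 0.122). A replicate block left every count of members as it was, for example 6 for GW3965 at 48 h and 4 for DMSO, and changed no call on a member. The 5 genes most like SLC38A4 were the same 5 over the 32 libraries. The overlap rule, score limit and windows planned for ChIP-seq sites were not run.

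Low genes limit the precision: SLC38A4 had 23 to 49 counts per library with DMSO and T0901317 at 24 h, SLC38A11 as few as 24 with rosiglitazone, and the SLC38A6 interval with T0901317 at 24 h ran from -0.24 to 0.69. Levels were not compared between genes, since transcript lengths were not used here.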

Other observations

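Of 28 genes of mTORC1 amino acid sensing, the machinery to which SLC38A9 belongs, 27 were tested. With each LXR agonist 1 passed at 24 h, the leucine sensor SESN2, which rose by 1.06 with GW3965 (SE 0.10, adjusted p = 1.19e-06, edgeR) and by 1.06 with T0901317 (SE 0.11, adjusted p = 2.13e-06, edgeR). At 48 h 6 rose and 4 fell with GW3965, and 6 rose and 7 fell with T0901317, where 33.6% and 30% of all genes passed. SEC13, a subunit of the GATOR2 complex and of the vesicle coat, had the largest rise with both, 1.04 (SE 0.07, adjusted p = 3.63e-10, edgeR) and 0.93 (SE 0.07, adjusted p = 1.87e-09, edgeR). With rosiglitazone 2 rose and 3 fell at 24 h, and 8 rose and 4 fell at 48 h, where 12.3% and 25.5% of all genes passed. SESN1 had the largest fall at both times, -0.52 (SE 0.09, adjusted p = 0.000467, edgeR) and -0.74 (SE 0.10, adjusted p = 7.83e-06, edgeR). In vehicle 6 rose and 6 fell between 24 and 48 h, where 38.6% of all genes passed, SESN2 by 3.71 and SEC13 by -1.02. The medians of the list lay between -0.06 and 0.06 in the comparisons with DMSO of the same time.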
